A study of Mus musculus with 16 samples.

Results

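Cytosolic ribosomal protein genes, which encode the proteins of the large (Rpl) and small (Rps) subunits of the ribosome outside mitochondria, were read across mouse colon organoids. The family was chosen by symbol: protein-coding genes that begin with Rpl or Rps and a number, with Rplp0 to Rplp2 and Rpsa, and without the Rps6k kinases, the named pseudogenes and the mitochondrial ribosomal proteins. This gave 86 of 54123 genes. They comprised 77 canonical members (46 of the large and 31 of the small subunit), 8 paralogs (Rpl3l, Rpl7l1, Rpl10l, Rpl22l1, Rpl36al, Rpl39l, Rps27l and Rps27rt), and Rps19bp1, which fits the symbol rule but encodes a binding partner and not a subunit. Of the 86, 82 passed the filter on low counts, among them all 77 canonical members. The paralogs Rpl3l, Rpl10l, Rpl39l and Rps27rt were listed at 0 reads in every library.

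The organoids were cultures of colon epithelium from 2 female mice aged 8 weeks, grown from the proximal or the distal colon, and all carried a heterozygous Cre-inducible BrafV600E allele and a heterozygous tdTomato reporter. No Cre step is described for the cultures sequenced here. They had been transduced with lentiviral Cas9 and either Scramble-sgRNA (control) or Cdx2-sgRNA, which targets the intestinal transcription factor Cdx2, and selected with antibiotic. Each Cdx2-sgRNA culture was 1 clone picked for a frameshift, and no such cloning step is described for the Scramble-sgRNA cultures, so that clone and guide cannot be told apart. In month 4 of culture, WENR-plus medium was given for 2 days, followed by 3 days of either WENR-plus or WENR-minus medium, which lacks the niche factors Wnt3a, EGF, Noggin and R-Spondin-1. Every combination of region, guide and medium had 2 libraries, labelled as biological replicates 1 and 2, which gave 8 groups and 16 libraries. Per the study the replicates of a group came from different mice, and whether a number marks the same mouse in every culture is not given in the sources used here.

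Each ribosome holds 1 copy of nearly every one of these proteins, the stalk proteins Rplp1 and Rplp2 being the exception, and cells make them together with ribosomal RNA in amounts that follow growth. Many of their messenger RNAs begin with a run of pyrimidine bases, the 5′ terminal oligopyrimidine (TOP) tract, through which mTOR signalling governs their translation. In the intestine, Wnt signals at the crypt base keep stem and progenitor cells dividing, and Myc, a Wnt target there, is known to drive ribosome production.

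Library totals ranged from 12465194 to 18922143 estimated counts (median 16836530). Transcripts of the mitochondrial genome took 16.9 to 30.3% of a library. Cdx2 was read in every library: 2964, 2148, 3269 and 2897 reads in proximal Scramble-sgRNA and 515, 630, 995 and 1343 in proximal Cdx2-sgRNA organoids (WENR-plus replicate 1 and 2, then WENR-minus). In distal organoids it had 1534, 1263, 1461 and 1535 reads with Scramble-sgRNA and 1086, 949, 1493 and 1029 with Cdx2-sgRNA. A frameshift need not lower the RNA, so the count does not by itself check the guide. Cdx2 RNA was lower with Cdx2-sgRNA in proximal organoids of both media (log2 fold change -2.09 ± 0.21, adjusted p = 5.48e-05 in WENR-plus and -1.29 ± 0.20, adjusted p = 0.000679 in WENR-minus), and in distal organoids it was not called (-0.36 ± 0.20, adjusted p = 0.857 and -0.07 ± 0.20, adjusted p = 0.876). Here and below, ± after a log2 fold change is its standard error, and a gene was called at a Benjamini-Hochberg adjusted p under 0.05 in edgeR's quasi-likelihood test over 15289 genes. With 2 libraries a group, the p-values measure the spread between these libraries only. Comparisons share groups, so they are not independent of each other. Of the epithelial markers, all 8 of colonocytes and all 7 of goblet cells exceeded 3 reads in every group, while 5 or 6 of 7 stromal and 3 to 5 of 6 immune markers stayed at 3 reads or fewer throughout a group. The summed CPM of the stromal list reached at most 2.85 and that of the immune list at most 25.8, the latter in proximal Cdx2-sgRNA organoids.

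The family ranked among the most abundant nuclear messenger RNAs. By mean TPM, a level scaled to transcript length, 32 of the 100 highest nuclear protein-coding genes were canonical members, and their median was 587 TPM against 12.4 TPM for tested nuclear protein-coding genes. In the large subunit the highest mean levels belonged to Rpl13a (7869 TPM), also known as a translational silencer outside the ribosome, Rpl26 (5371) and the stalk protein Rplp1 (2630.4), and the lowest to Rpl12 (61.9), Rpl27a (49.9) and Rpl37 (38.1). In the small subunit Rps7 (2105 TPM) and Rps18 (1616) stood among the 3 highest, and Rps28 (133), Rps13 (112) and Rps12 (86.7) were lowest. The proteins are made in near equal numbers, yet these listed RNA levels spanned 38.1 to 7869 TPM. TPM is scaled to effective length, which is small where transcripts are short (most-read transcript 345 to 2045 bases, fragments 237 to 381 bases). How far this widens the span was not tested.

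Mouse ribosomal protein genes have many processed pseudogenes that copy their messenger RNA, and 280 of them are named after 60 members in the annotation. Over the whole family the named pseudogenes held 4.88 to 6.50% as many reads as the members. For Rpl31, Rpl36a, Rps23, Rps13 and Rpl19 they held more reads than the gene itself (557, 402, 390.5, 118 and 102% of the member's reads), so levels of these members are uncertain. The share was also large for Rpl14 (86.8%), Rps16 (75.5%), Rpl28 (60.8%), Rps27a (31.0%) and Rps6 (18.5%). Of canonical members, 30 hold snoRNA genes inside them (58 snoRNAs in all), and the libraries were made from total RNA. Only 30.6% of the reads of Rps18 and 42.7% of those of Rpl12 lay on transcripts annotated as protein coding, against 87.3 to 89.6% over the family in a library. Shares were similar or lower for Rpl23 (27.1%), Rps26 (29.8%), Rps20 (32.4%), Rps16 (34.8%) and Rps23 (42.1%). Other reads of Rpl12 lay on transcripts annotated for nonsense-mediated decay (33.9%) or with a retained intron (23.4%). Its fold changes on protein-coding transcripts alone are not given here.

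As the tract described above lies at the start of the messenger RNA, the stretch around the transcription start is shown for the 8 canonical members in which the nearest pyrimidine run CTTTCC begins within 10 bases of the RefSeq start (GRCm38.p6). The windows of 30 bases read 5′ to 3′ on the gene's strand, and capitals mark the run.
Rps27 (small subunit, chr3:90213630-90213659, minus strand): ccgctttcgctcCTTTCCggcggtgacgac
Rpl28 (large subunit, chr7:4792955-4792984, plus strand): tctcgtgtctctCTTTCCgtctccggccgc
Rpl38 (large subunit, chr11:114668568-114668597, plus strand): ggaagcctcgttCTTTCCccgttctcttcg
Rps10 (small subunit, chr17:27635223-27635252, minus strand): gcacgccccttcCTTTCCagcctccgcctc
Rpl18 (large subunit, chr7:45718062-45718091, plus strand): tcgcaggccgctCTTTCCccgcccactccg
Rpl15 (large subunit, chr14:18270965-18270994, minus strand): aaagccttcttcCTTTCCtctggcggcagc
Rpl35 (large subunit, chr2:39005119-39005148, minus strand): gtcggccccgccCTTTCCtctttctctcga
Rpl13a (large subunit, highest level, chr7:45128719-45128748, minus strand): caagacctcctcCTTTCCcaggcggctgcc
The run begins at base 2 in Rps27, 3 in Rpl28, 1 in Rpl38, 5 in Rps10, 4 in Rpl18, 5 in Rpl15, -5 in Rpl35 and 10 in Rpl13a, with the start as base 1 and negative numbers before it. RefSeq windows (250 bases before to 50 after a start) were at hand for 66 of 86 members, 57 of them canonical.

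On the gene's strand CTTTCC occurred in 22 of 57 canonical windows (38.6%) against 14.5% of 10071 windows of all genes, and CTCTTTC, which can overlap it, in 13 of 57 canonical windows (22.8%) against 3.61% of 10071 windows. CCGGAAG, the core that ETS-family factors such as Gabpa bind, occurred on either strand in 22 of 57 canonical windows (38.6%) against 18.7% of 10071 windows. AAGATGGCG, a core bound by Yy1, occurred on either strand in 3 of 57 (5.26% against 3.32%), and the TATA box TATAAA on the gene's strand in 5 (8.77% against 4.62%). The letters were chosen after some windows had been read. A match is a description of the sequence and no evidence of a site.

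The first question was what withdrawal of the niche factors did to the family. In every culture, ribosomal protein reads took a smaller share of the library in WENR-minus than in WENR-plus medium. As a percentage of the reads of nuclear protein-coding genes, the 86 members took 5.23% and 5.26% in WENR-plus and 2.66% and 2.88% in WENR-minus in proximal Scramble-sgRNA organoids of replicate 1 and replicate 2. The shares were 4.99% and 7.32% against 2.25% and 3.15% in proximal Cdx2-sgRNA organoids. All 4 WENR-plus libraries of the proximal colon lay above all 4 WENR-minus libraries.

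In distal organoids the share was 4.42% and 4.88% in WENR-plus and 1.61% and 2.32% in WENR-minus with Scramble-sgRNA. With Cdx2-sgRNA it was 3.48% and 4.12% and 0.995% and 0.769%, the lowest shares of the 16 libraries. Between libraries of the same replicate number, the WENR-plus share was 1.97 and 1.83 times the WENR-minus share in proximal Scramble-sgRNA, 2.22 and 2.32 in proximal Cdx2-sgRNA, 2.75 and 2.10 in distal Scramble-sgRNA and 3.50 and 5.36 in distal Cdx2-sgRNA organoids (replicate 1, then replicate 2). Mitochondrial ribosomal proteins, measured the same way, gave ratios of 1.41 to 2.75 over the 8 pairs, and in each pair the cytosolic ratio was the larger. In bulk RNA, fewer cells that make much of a transcript and less of it per cell cannot be told apart.

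**Figure D1:**
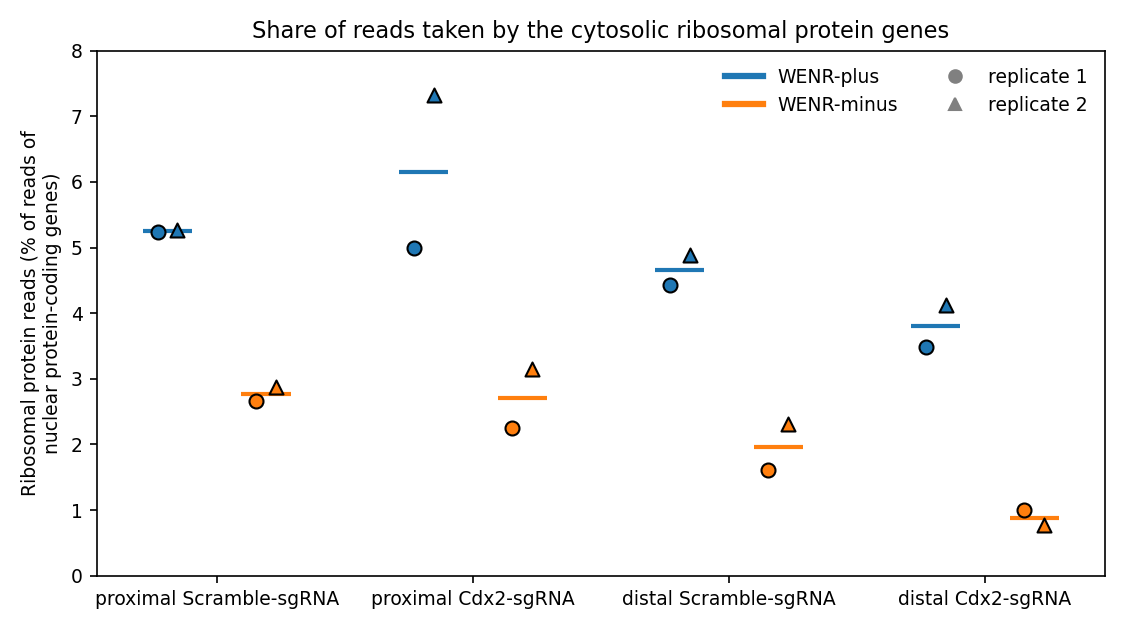
Reads of the 86 cytosolic ribosomal protein genes as a percentage of the reads of nuclear protein-coding genes (vertical axis, linear, from 0), by culture and medium. Symbols are single libraries (circle replicate 1, triangle replicate 2) and bars the mean of 2. WENR-plus libraries lie at 3.48 to 7.32%, WENR-minus libraries at 0.769 to 3.15%.

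Tested gene by gene without pairing the libraries of a culture, the members that passed the test fell in WENR-minus in each of the 4 cultures. By edgeR 0 rose in any of them, at an unadjusted p under 0.05 as well, and 0 rose by DESeq2. In proximal Scramble-sgRNA organoids 18 of 82 members tested were called lower and 0 higher, where 12.9% of all genes were called lower and 16.4% higher. The median log2 fold change of the 77 canonical members was -0.67 (range over the planned settings -0.76 to -0.57), against -0.06 for all genes, and 75 of 77 lay below 0 in either replicate. Of all 15289 genes, 8010 lay below 0 in the fit of both replicates. The called members were led by Rpl12, at the base of the ribosomal stalk (log2 fold change -1.32 ± 0.27, adjusted p = 0.0046), Rps6, the substrate of the S6 kinases (-1.17 ± 0.29, adjusted p = 0.0119), and Rps27a, made as a fusion with ubiquitin (-1.11 ± 0.30, adjusted p = 0.0181). The smallest called changes were those of Rpl10a (-0.67), Rpl9 (-0.66) and Rpl34 (-0.65). Leaving out a WENR-plus library left 2 (replicate 1) or 2 (replicate 2) called members, and leaving out a WENR-minus library 1 or 4. Other settings raised the count, to 29 with the replicate number as a block, 33 with at least 10 counts required in every library, 46 with no filter on low counts, 48 with these 4 libraries fitted alone and 49 without TMM factors, and DESeq2 called 26. Length-scaled counts gave 10.

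In proximal Cdx2-sgRNA organoids 49 members were called lower and 0 higher, where 5.17% of all genes were called lower and 8.33% higher. Of these 47 were canonical, 26 of 46 of the large and 21 of 31 of the small subunit, and the canonical median was -0.98 (-1.28 to -0.69) against -0.03 for all genes. Rps18 (log2 fold change -1.58 ± 0.29, adjusted p = 0.00649), Rpl12 (-1.48 ± 0.27, adjusted p = 0.00684) and Rps7 (-1.48 ± 0.25, adjusted p = 0.00491) fell most. Rpl22l1 (-0.83, and -0.15, adjusted p = 0.947 by edgeR, on transcripts annotated as protein coding), Rpl41, the shortest ribosomal protein (-0.83), and Rplp1 (-0.71) fell least among the called. The count was 12 without the WENR-minus library of replicate 1, 9 without the WENR-plus library of replicate 2, and 0 when these 4 libraries were fitted alone, which leaves 2 residual degrees of freedom.

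In distal Scramble-sgRNA organoids 42 members were called lower and 0 higher, where 20.2% of all genes were called lower and 20.3% higher. The canonical members, 41 of 77 called, had a median of -0.87 (-1.12 to -0.58) against -0.11 for all genes. All 77 had a negative fold change, as did 8246 of all 15289 genes. Rpl12 (-1.61 ± 0.28, adjusted p = 0.00094), Rps19, which is needed for small subunit rRNA maturation (-1.25 ± 0.28, adjusted p = 0.00387), and Rps27a (-1.24 ± 0.30, adjusted p = 0.00722) fell most. Rpl8 (-0.72) and Rps16 (-0.71) were among the 3 called members that fell least. Without the WENR-plus library of replicate 1 or of replicate 2 the count was 16 or 9, and without the WENR-minus library of replicate 1 it was 7. It was 66 with no filter on low counts and 76 without TMM factors.

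The fall was widest in distal Cdx2-sgRNA organoids, where 78 of 82 members were called lower and 0 higher, 73 of these by more than 2-fold, while 24% of all genes were called lower and 23% higher. Canonical members, 73 of 77 called, had a median of -1.57 (-1.69 to -1.32) against -0.10 for all genes. Rpl12 (-2.26 ± 0.29, adjusted p = 9.07e-05), Rpl27a (-2.21 ± 0.33, adjusted p = 0.000225) and Rps19 (-2.15 ± 0.29, adjusted p = 0.000114) fell most, and Rpl7l1 (-0.84), Rplp1 (-0.81) and Rplp0, the core of the stalk (-0.70), least. Leaving out any of the 4 libraries kept the count between 59 and 70.

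**Figure D2:**
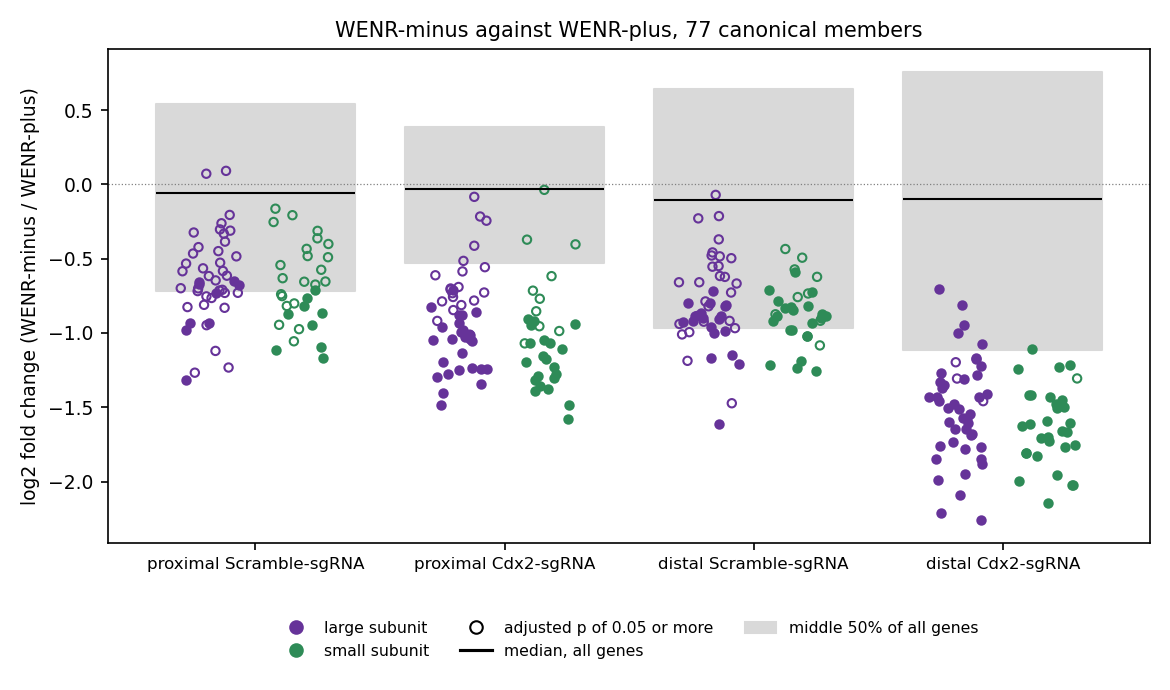
Log2 fold change (WENR-minus over WENR-plus, vertical axis) of the 77 canonical members in the 4 cultures, large subunit in purple and small subunit in green. Filled points passed an adjusted p of 0.05, and the black line and grey band are the median and the middle 50% of all 15289 genes. In distal Cdx2-sgRNA organoids all points lie between -2.26 and -0.70.

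Rpl12 was the most variable canonical member between the 8 groups (SD of the group means 1.08 of log2 CPM, the read count scaled to the normalised library size), followed by Rpl27a (1.01) and Rps19 (0.98). Rpl12 measured 50.7 and 66.8 in WENR-plus and 21.1 and 26.0 in WENR-minus proximal Scramble-sgRNA organoids, and 51.7 and 68.4 against 17.7 and 25.2 in proximal Cdx2-sgRNA organoids (CPM, replicate 1 and replicate 2). It measured 33.4 and 50.1 in WENR-plus and 12 and 15.3 in WENR-minus distal Scramble-sgRNA organoids, and 28.3 and 36.6 against 7.70 and 5.85 in distal Cdx2-sgRNA organoids. Every WENR-minus library lay below every WENR-plus library for this gene.

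Rps19 measured 162 and 141 in WENR-plus and 68.2 and 73.8 in WENR-minus proximal Scramble-sgRNA organoids, and 156 and 243 against 60.6 and 91.7 in proximal Cdx2-sgRNA organoids (CPM). It measured 140.3 and 138 in WENR-plus and 45.6 and 71.2 in WENR-minus distal Scramble-sgRNA organoids, and 84.8 and 118 against 23.1 and 22.7 in distal Cdx2-sgRNA organoids, and the distal Cdx2-sgRNA WENR-minus pair lay below all others.

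At the other end, Rplp1 (SD 0.38), Rplp0 (0.39) and Rpl10, which completes the large subunit late in its assembly (0.41), varied least. Rplp0 measured 1219 and 1211 in WENR-plus and 1321 and 1267 in WENR-minus proximal Scramble-sgRNA organoids, and 1343 and 1666 against 852 and 806 in proximal Cdx2-sgRNA organoids (CPM). It measured 1209 and 1157 in WENR-plus and 1018 and 1234 in WENR-minus distal Scramble-sgRNA organoids, and 1008 and 1057 against 791 and 476 in distal Cdx2-sgRNA organoids. The media overlapped for Rplp0 in distal Scramble-sgRNA organoids. In proximal Scramble-sgRNA organoids both WENR-minus libraries lay above both WENR-plus libraries, and in both kinds of Cdx2-sgRNA organoids they lay below. Rpl10 measured 248 and 235 in WENR-plus and 249.5 and 257 in WENR-minus proximal Scramble-sgRNA organoids, and 284 and 373 against 244 and 202 in proximal Cdx2-sgRNA organoids. It measured 264 and 274 in WENR-plus and 163 and 253 in WENR-minus distal Scramble-sgRNA organoids, and 246 and 327 against 133 and 121 in distal Cdx2-sgRNA organoids, so that the distal Cdx2-sgRNA WENR-minus libraries were again the lowest. All 77 canonical members had their highest group mean in a WENR-plus group, 58 of them in proximal Cdx2-sgRNA, and all 77 had their lowest in distal Cdx2-sgRNA WENR-minus organoids. How many of all genes order the groups in this way is not given here, so these counts do not show a trait of the family alone. The median span from lowest to highest group was 2.18 on the log2 scale.

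Scaling bears on the size of these changes. The TMM factors by which libraries were scaled ranged from 0.656 to 1.31 and were lower in WENR-minus than in WENR-plus in each culture and replicate. With library sizes alone, the canonical medians were -1.02, -1.02, -1.37 and -2.24 (proximal Scramble-sgRNA, proximal Cdx2-sgRNA, distal Scramble-sgRNA, distal Cdx2-sgRNA), where the medians of all genes were -0.40, -0.06, -0.61 and -0.77. Relative to all genes the canonical median was lower under either scaling. Of all called genes the share called higher was 56.0, 61.7, 50.2 and 48.9% with TMM and 27.8, 59.7, 22.4 and 20.3% without it. Canonical members are short (most-read transcript 345 to 2045 bases, median 637). The 971 other tested protein-coding genes with a most-read transcript under 1000 bases had medians of 0.00, -0.22, 0.05 and -0.13 in the 4 cultures with TMM.

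Other genes of the translation machinery were read beside the family, in the same order of cultures. The lists were set with earlier results known. Of all genes 12.9, 5.17, 20.2 and 24% were called lower and 16.4, 8.33, 20.3 and 23% higher in these comparisons. Of ribosome biogenesis genes, which make and assemble the subunits, 31 of 50, 5 of 50, 46 of 50 and 46 of 50 were called lower and 0 higher in each (median log2 fold changes -0.87, -0.28, -1.62 and -2.01). Of mitochondrial ribosomal proteins 5 of 78, 15 of 78, 15 of 78 and 47 of 78 were called lower and 1, 0, 5 and 3 higher (medians -0.20, -0.40, -0.30 and -0.81). In both Scramble-sgRNA cultures their share called lower was not above that of all genes. Of translation factors 5 of 22, 7 of 22, 10 of 22 and 17 of 22 were called lower and 0, 0, 1 and 1 higher (medians -0.36, -0.56, -0.51 and -0.96). Proliferation genes, of S phase and mitosis, fell in 3 cultures: 19 of 20, 0 of 20, 19 of 20 and 19 of 20 were called lower and 0 higher (medians -2.07, -0.19, -2.13 and -3.24). In proximal Cdx2-sgRNA organoids, where 49 ribosomal protein genes fell, 0 of 20 proliferation genes were called in either direction by edgeR (0 at an unadjusted p under 0.05, and 0 by DESeq2). The medium effect differed between Cdx2-sgRNA and Scramble-sgRNA proximal organoids for 9 of 20 proliferation and 2 of 50 biogenesis genes by edgeR (17 and 7 by DESeq2), all higher with Cdx2-sgRNA. It was called different for 0 ribosomal protein genes by edgeR, with 10 lower at an unadjusted p under 0.05 and 4 lower by DESeq2. Of all genes 2.08% were called higher and 2.3% lower by edgeR in that test. Proliferation genes summed to 1013 to 1290.0 CPM in WENR-plus and 1104 to 1196 in WENR-minus proximal Cdx2-sgRNA organoids, and to 2182 to 2466 and 443 to 829.6 in proximal Scramble-sgRNA organoids. A list of 20 genes that regulate ribosomal protein genes or the cell's response to ribosome stress had calls in both directions, with 6, 5, 5 and 7 called higher and 4, 1, 6 and 6 lower. In proximal Cdx2-sgRNA organoids its share called lower was near that of all genes.

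**Figure D3:**
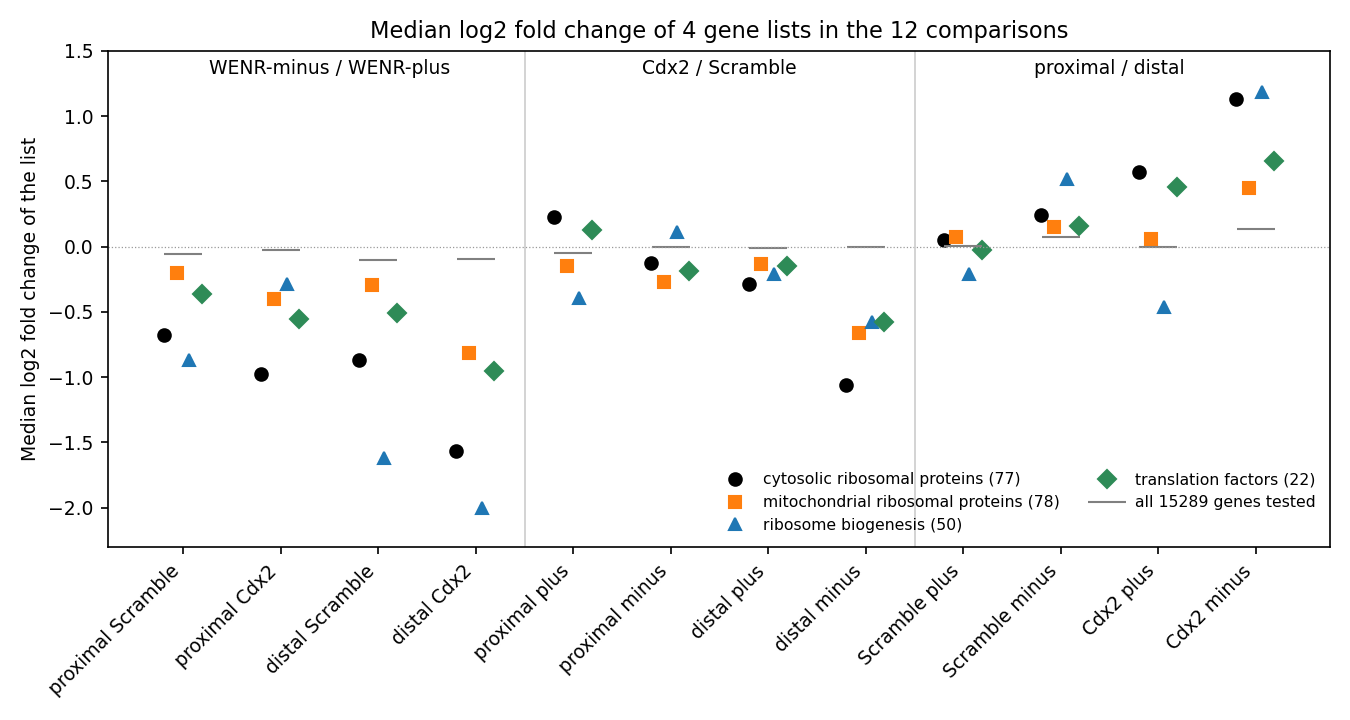
Median log2 fold change (vertical axis) of 4 gene lists in the 12 comparisons of groups, with the median of all genes as a grey bar. In the 4 medium comparisons the ribosomal protein median (black) lies at -0.67, -0.98, -0.87 and -1.57, and ribosome biogenesis (blue) at -0.87, -0.28, -1.62 and -2.01.

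Among named genes, Myc, which drives ribosome production, fell in proximal Scramble-sgRNA (log2 fold change -1.77 ± 0.42, adjusted p = 0.00894), distal Scramble-sgRNA (-2.67 ± 0.43, adjusted p = 0.000628) and distal Cdx2-sgRNA organoids (-2.02 ± 0.43, adjusted p = 0.00233) and was not called in proximal Cdx2-sgRNA organoids (-0.32 ± 0.40, adjusted p = 0.666). Its CPM was 24.3 and 33.3 in WENR-plus and 16.3 and 29.8 in WENR-minus in the last of these, and the media overlapped. In proximal Scramble-sgRNA organoids Myc measured 47.7 and 40.5 against 11.3 and 14.5. The nucleolar proteins Ncl, Npm1 and Fbl, which act in rRNA processing and assembly, gave log2 fold changes of -1.08, -1.13 and -1.24 in proximal Scramble-sgRNA, -1.87, -1.55 and -2.47 in distal Scramble-sgRNA and -2.03, -2.08 and -2.63 in distal Cdx2-sgRNA organoids, all called. In proximal Cdx2-sgRNA organoids they gave 0.14, -0.80 and -0.46, none of them called.

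The symbol rule misses some genes of the cytosolic ribosome. Rack1, a scaffold protein on the small subunit, fell with the family in proximal Cdx2-sgRNA (-1.44 ± 0.24, adjusted p = 0.00446), distal Scramble-sgRNA (-0.79 ± 0.23, adjusted p = 0.019) and distal Cdx2-sgRNA organoids (-1.82 ± 0.24, adjusted p = 0.000105), and had -0.49 ± 0.23, adjusted p = 0.143 in proximal Scramble-sgRNA organoids. Fau, whose ribosomal protein is made as a fusion with a ubiquitin-like sequence, was called in none of the 4, with log2 fold changes of 0.12, -1.02, 0.35 and 0.11. The elongation factor Eef1a1 fell in proximal Cdx2-sgRNA (-1.09 ± 0.23, adjusted p = 0.0118) and distal Cdx2-sgRNA (-1.18 ± 0.23, adjusted p = 0.00131) and was not called in proximal (-0.07 ± 0.23, adjusted p = 0.858) or distal (-0.38 ± 0.23, adjusted p = 0.203) Scramble-sgRNA organoids. Eef2, the translocase, had 0.25, -0.21, 0.06 and -0.57, the last with an adjusted p of 0.037. Tpt1, whose RNA also carries a TOP tract, had 0.51, -0.49, 0.32 and -0.03.

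Markers of cell state moved with the media. In the order of WENR-plus and WENR-minus, 7 stem cell markers summed to 543 to 613 and 150.5 to 231 CPM in proximal Scramble-sgRNA, 628 to 671 and 136 to 243 in proximal Cdx2-sgRNA, 484 to 619 and 156 to 185 in distal Scramble-sgRNA, and 408 to 668 and 106 to 117 in distal Cdx2-sgRNA organoids. Colonocyte markers (8) summed, in the same order, to 391 to 448 and 7356 to 10673, 304 to 372 and 731 to 1772, 437 to 638 and 7763 to 12155, and 680.5 to 881 and 16091 to 17429. Stem cell markers were thus lower in WENR-minus in every culture, and colonocyte markers were lowest among WENR-minus libraries in proximal Cdx2-sgRNA and highest in distal Cdx2-sgRNA organoids. Goblet markers (7) summed to 36.7 to 50.3 and 54.1 to 73.5 in proximal Cdx2-sgRNA and 842 to 1362 and 6280.1 to 7484 in proximal Scramble-sgRNA organoids. Fragment length, read from the deposited effective lengths, also moved with the medium: it was 237 to 381 bases in WENR-plus (mean 317 ± 41.2, SD, n = 8) and 242 to 301 bases in WENR-minus libraries (269 ± 24.7, n = 8), and shorter in WENR-minus in 6 of 8 pairs of the same culture and replicate number. The part that cell makeup or fragment length has in the family's change was not tested.

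The next comparison asked whether Cdx2-sgRNA changed the family. In distal organoids kept in WENR-minus medium, 45 of 82 members were lower with Cdx2-sgRNA than with Scramble-sgRNA and 0 higher, where 5.25% of all genes were called lower and 4.51% higher. Canonical members, 44 of 77 called, had a median log2 fold change of -1.06 (-1.30 to -0.76) against 0.00 for all genes. All 77 were negative, as were 7585 of all 15289 genes. Between the libraries of replicate 1 the median difference was -0.62 and between those of replicate 2 -1.41. Rpl27a (-1.52 ± 0.33, adjusted p = 0.0177), Rps12 (-1.50 ± 0.34, adjusted p = 0.0218) and Rpl10a, the protein of the L1 stalk (-1.44 ± 0.23, adjusted p = 0.00581), fell most, and the stalk proteins Rplp0 (-0.83) and Rplp1 (-0.81) with Rpl34 (-0.87) least among the called. With library sizes alone 21.0% of all called genes were higher against 46.2% with TMM, and the canonical median was -1.27. The count depended on single libraries: it was 3 without the Scramble-sgRNA library of replicate 2, 4 without the Cdx2-sgRNA library of replicate 2 and 21 without that of replicate 1. It was 78 with no filter on low counts and 28 with these 4 libraries fitted alone.

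Other lists moved in the same comparison of distal WENR-minus organoids. Of mitochondrial ribosomal proteins 24 of 78 were called lower with Cdx2-sgRNA and 0 higher (median log2 fold change -0.66), of translation factors 8 of 22 and 0 (-0.58), of ribosome biogenesis genes 7 of 50 and 0 (-0.58), and of proliferation genes 5 of 20 and 0 (-1.11; DESeq2 called 13 lower). Colonocyte markers had 2 of 8 called higher and 1 lower (0.57), and 0 of 7 goblet markers were called by either tool (0 at an unadjusted p under 0.05, median 0.32). The part of cell makeup or growth in the family's difference was not tested.

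In distal organoids in WENR-plus medium no member was called by edgeR (0 higher, 0 lower, 1 at an unadjusted p under 0.05, and 0 by DESeq2), and few genes of any kind were called (0.124% lower, 0.137% higher). The canonical median was -0.29 (-0.43 to -0.15), with 75 of 77 below 0, where 7901 of all 15289 genes were below 0.

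In proximal organoids few members were called in the main setting. In WENR-minus medium 6 members were lower with Cdx2-sgRNA and 0 higher, where 18.3% of all genes were called lower and 12.7% higher, so that the share of members called was below that of all genes. They included Rpl22l1 (-1.37 ± 0.22, adjusted p = 0.000782, and -0.92 ± 0.80, adjusted p = 0.409 on transcripts annotated as protein coding), Rpl7a (-0.84), Rpl8 (-0.74), Rpsa, also described as the precursor of a laminin receptor (-0.70), and Rplp0 (-0.64). The canonical median, -0.12, was -0.51 within replicate 1 and 0.12 within replicate 2, so its sign differed between the replicates, and it was 0.04 without TMM, where 53.2% of called genes were higher against 40.9% with it. Without the Scramble-sgRNA library of replicate 1 or of replicate 2, 3 or 2 members were called. With no filter on low counts 13 were called, 5 of them higher. In the same comparison 7 of 7 goblet markers (median -6.80) and 6 of 8 colonocyte markers (-4.45) were lower with Cdx2-sgRNA, 8 of 20 proliferation genes were higher and 1 lower (1.01), and 17 of 78 mitochondrial ribosomal proteins were lower and 1 higher (-0.27).

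In WENR-plus medium 1 member, Rpl22l1, was lower with Cdx2-sgRNA in proximal organoids (-0.95 ± 0.21, adjusted p = 0.00904, and -1.73 ± 0.81, adjusted p = 0.139 on transcripts annotated as protein coding) and 0 were higher, where 14.8% of all genes were called lower and 9.94% higher. At an unadjusted p under 0.05, 4 members were higher, and DESeq2 called 2 higher and 1 lower. With no filter on low counts edgeR called 10 members, 9 of them higher. Leaving out the Scramble-sgRNA library of replicate 1 gave 0 called members, and the count was 2 without that of replicate 2 or the Cdx2-sgRNA library of replicate 1. The canonical median was 0.22, from -0.10 in replicate 1 and 0.52 in replicate 2. Of all called genes 40.1% were higher with TMM and 27.3% without it. Beside them, 10 of 20 proliferation genes (median -0.96), 17 of 50 ribosome biogenesis genes (-0.40) and 5 of 7 goblet markers (-5.36) were lower with Cdx2-sgRNA and 0 higher.

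**Figure D4:**
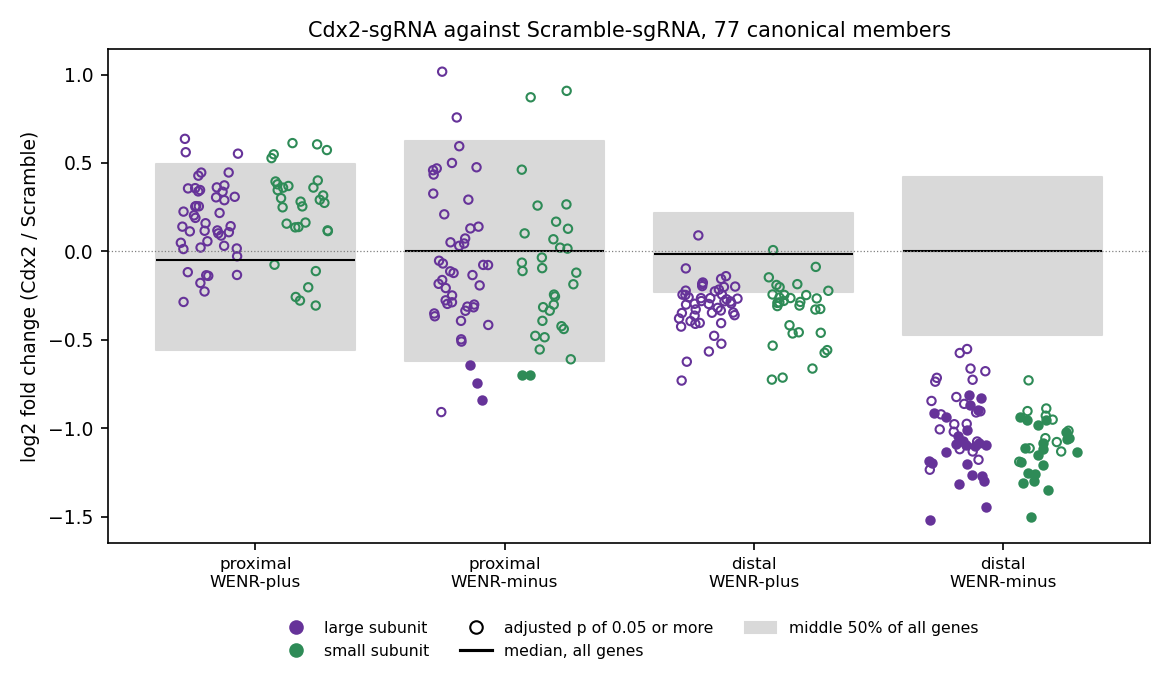
Log2 fold change (Cdx2-sgRNA over Scramble-sgRNA, vertical axis) of the 77 canonical members by region and medium, drawn as in the plot of the media. In distal WENR-minus organoids all points lie between -1.52 and -0.55, and in proximal WENR-minus organoids between -0.91 and 1.02.

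Whether the effect of Cdx2-sgRNA differed between the regions was tested as a difference of differences. In WENR-minus medium it did for 10 members, all with a higher value (proximal minus distal effect) and 0 with a lower one, where 6.2% of all genes were called higher and 11% lower. The largest were Rpl27a (2.00 ± 0.45, adjusted p = 0.0116), Rps12 (1.96 ± 0.47, adjusted p = 0.0158) and Rpl31 (1.48 ± 0.40, adjusted p = 0.0289), the last with fewer reads than its pseudogenes. The other 7, named after their values were seen, were Rps19, Rpl22, Rps23, Rps6, Rpl10a, Rpl14 and Rpl15, of which Rps23 also has fewer reads than its pseudogenes. Pseudogenes of Rpl14 and Rps6 held 86.8 and 18.5% as many reads as the gene. All 77 canonical members had a positive value, with a median of 0.88 against 0.00 for all genes. Of all 15289 genes, 7643 had a positive value. Rpl27a measured 24.6 and 19.3 CPM in proximal Scramble-sgRNA, 21.1 and 39.8 in proximal Cdx2-sgRNA, 13.9 and 21.3 in distal Scramble-sgRNA and 6.09 and 6.19 in distal Cdx2-sgRNA organoids, all in WENR-minus. Rps12 measured 17.2 and 17.5, 15.5 and 32.0, 13 and 17.8 and 5.92 and 4.93 in the same order. For both genes the groups of the proximal colon overlapped and the distal Cdx2-sgRNA pair lay below the distal Scramble-sgRNA pair.

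That count of 10 moved with the libraries and the tool. DESeq2 called 28, the count was 44 with no filter on low counts and 31 without TMM factors, and of all called genes 36.0% were higher with TMM and 64.2% without it. It was 5, 25 and 22 without the proximal Scramble-sgRNA, proximal Cdx2-sgRNA and distal Scramble-sgRNA library of replicate 1. Without the libraries of replicate 2 it was 4 (proximal Scramble-sgRNA), 3 (proximal Cdx2-sgRNA), 1 (distal Scramble-sgRNA) and 4 (distal Cdx2-sgRNA). In WENR-plus medium 0 members passed the same test, with 6 higher at an unadjusted p under 0.05 and 2 by DESeq2 (1.41% of all genes higher, 4.29% lower). The canonical median was 0.50. With no filter on low counts 9 members were called there.

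The medium effect in distal organoids, compared between Cdx2-sgRNA and Scramble-sgRNA, was called different for 0 members by edgeR, where 0% of all genes were called higher and 0% lower. At an unadjusted p under 0.05, 31 members were lower, the smallest adjusted p was 0.255, and DESeq2 called 3 lower. The canonical median was -0.74, with 76 of 77 below 0, where 7771 of all 15289 genes were below 0. In proximal organoids 0 members were called (10 lower at an unadjusted p under 0.05 and 4 by DESeq2), where 2.08% of all genes were called higher and 2.3% lower. With no filter on low counts 5 members were called in distal organoids' proximal counterparts and 3 in distal organoids. In proximal organoids the canonical median was -0.33 with TMM and -0.02 without it, and the share of called genes that were higher was 47.5% and 82.7%. The difference of the medium effect between regions in Scramble-sgRNA organoids was called for 0 members (0 at an unadjusted p under 0.05 and 0 by DESeq2), where 0.0327% of all genes were called higher and 0.0392% lower (45.5% of the calls higher with TMM and 68.4% without it).

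Compared between regions in the main edgeR setting, canonical members were called in Cdx2-sgRNA organoids of both media, and 0 in Scramble-sgRNA organoids. The test of that difference is the same as that of the Cdx2-sgRNA effect between regions. With Cdx2-sgRNA in WENR-minus medium 71 of 82 members were higher in proximal than in distal organoids and 0 lower, where 24.6% of all genes were called higher and 24.4% lower. Canonical members, 67 of 77 called, had a median of 1.13 (0.79 to 1.37) against 0.13 for all genes. Rpl27a (2.31 ± 0.33, adjusted p = 0.000208), Rpl37 (2.18 ± 0.57, adjusted p = 0.00834) and Rps12 (2.13 ± 0.34, adjusted p = 0.000452) differed most, and Rpl18 (0.70), Rpl7a (0.71) and Rpl7 (0.71) least among the called. The count was 34 without the proximal and 37 without the distal library of replicate 2. With library sizes alone the canonical median was 1.84 and that of all genes 0.84, and 78.6% of called genes were higher against 50.3% with TMM. Other lists moved in the same comparison: 40 of 50 ribosome biogenesis genes (median 1.18) and 19 of 20 proliferation genes (2.37) were higher in proximal organoids, and 6 of 8 colonocyte (-6.14) and 7 of 7 goblet markers (-7.87) were lower. Goblet markers summed to 5892 to 15762 CPM in distal Cdx2-sgRNA WENR-minus organoids, against the 54.1 to 73.5 of proximal ones given above. Their part in the family's difference was not tested.

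In WENR-plus medium 20 members, all canonical, were higher in proximal than in distal Cdx2-sgRNA organoids and 0 lower, where 11.2% of all genes were called higher and 18.1% lower. The canonical median was 0.57 (0.23 to 0.84). Rpl27a (1.11 ± 0.30, adjusted p = 0.0184), Rpl32 (1.04) and Rps27a (1.00) differed most, and Rps25 (0.71), Rps16 (0.67) and Rpl7 (0.67) least among the called. Without the proximal library of replicate 2 or the distal library of replicate 1 the count was 0, and without the distal library of replicate 2 it was 10. It was 46 with no filter on low counts, and DESeq2 called 31. In the same comparison 16 of 50 ribosome biogenesis genes were lower in proximal organoids and 1 higher (median -0.46), 6 of 20 proliferation genes were lower and 0 higher (-0.72), and 4 of 8 colonocyte (-1.27) and 7 of 7 goblet markers (-5.59) were lower, with 1 colonocyte marker higher. Goblet markers summed to 935 to 4063 CPM in distal Cdx2-sgRNA WENR-plus organoids.

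In Scramble-sgRNA organoids 1 member, Rpl22l1, was higher in proximal than in distal cultures in either medium (log2 fold change 1.01 ± 0.22, adjusted p = 0.0363 in WENR-plus and 1.13 ± 0.22, adjusted p = 0.00944 in WENR-minus) and 0 were lower. Both calls ended when only transcripts annotated as protein coding were counted (1.02 ± 0.79, adjusted p = 0.63 and 1.60 ± 0.83, adjusted p = 0.238 by edgeR). Of all genes, 0.733% were called higher and 1.39% lower in WENR-plus, and 4.21% higher and 5.74% lower in WENR-minus. In the main setting no canonical member was called by edgeR (0 higher and 1 lower at an unadjusted p under 0.05 in WENR-plus, 2 and 0 in WENR-minus), and DESeq2 called 1 lower in WENR-plus and 0 in WENR-minus. With the replicate number as a block edgeR also called a canonical member, Rpl12, higher in proximal organoids in WENR-minus (log2 fold change 0.79 ± 0.19, adjusted p = 0.0269). Without TMM factors edgeR called 7 members in WENR-minus, canonical ones among them. With no filter on low counts it called 4 in WENR-minus and 2 in WENR-plus. The WENR-plus call was lost without any 1 of the 4 libraries, and the WENR-minus call without the proximal or the distal library of replicate 1. The canonical medians were 0.05 and 0.24 (WENR-plus, then WENR-minus). Between the libraries of replicate 1 they were 0.10 and 0.53, with 67 and 76 of 77 members higher in proximal organoids, and between those of replicate 2 they were -0.00279 and -0.03, with 36 and 35 higher. Of all 15289 genes 7722 and 8383 were higher in the fit of both replicates. The share of all called genes that were higher was 34.6% and 42.3% with TMM and 52.7% and 82.8% without it.

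Paralogs were compared with their canonical partners by TPM. Rpl22 and Rpl22l1 are a pair in which the Rpl22 protein is known to repress Rpl22l1. Rpl22l1 measured 95.8 and 78.3 in WENR-plus and 74.5 and 57.0 in WENR-minus proximal Scramble-sgRNA organoids, and 39.7 and 50.7 against 24.2 and 26.5 in proximal Cdx2-sgRNA organoids (CPM). It measured 42.8 and 43.7 in WENR-plus and 24.7 and 35.4 in WENR-minus distal Scramble-sgRNA organoids, and 31.8 and 38.4 against 14.4 and 11.4 in distal Cdx2-sgRNA organoids. The 4 proximal Scramble-sgRNA libraries lay above the other 12. Rpl22 measured 114 and 173 in WENR-plus and 77.3 and 95.3 in WENR-minus proximal Scramble-sgRNA organoids, and 216 and 229.9 against 106 and 111 in proximal Cdx2-sgRNA organoids. It measured 235 and 249.6 in WENR-plus and 94.3 and 125 in WENR-minus distal Scramble-sgRNA organoids, and 172 and 201 against 59.1 and 44.3 in distal Cdx2-sgRNA organoids. In proximal Scramble-sgRNA organoids Rpl22 was below its level in distal Scramble-sgRNA organoids in WENR-plus (-0.76 ± 0.22, adjusted p = 0.118) without passing the test.

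The ratio of Rpl22l1 to Rpl22 was 0.483 and 0.928 in WENR-plus and 0.639 and 1.06 in WENR-minus proximal Scramble-sgRNA organoids (lower and higher of the 2 libraries). In the other 12 libraries it was 0.188 to 0.304. Only 18.4% of Rpl22l1 reads lay on transcripts annotated as protein coding. With these transcripts alone for both genes, a setting added after the ratios were seen, the ratio was 0.0438 to 0.251 in proximal Scramble-sgRNA organoids and 0.00745 to 0.0652 in the other 12 libraries, and the ranges overlapped.

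The ratio of Rpl36al to Rpl36a ranged from 1.97 to 5.03 over 16 libraries (median 3.08), but which of the pair is higher depends on the pseudogenes. With the TPM of its named pseudogenes added to Rpl36a, a setting added later as well, the ratio was 0.232 to 0.466 (median 0.332), below 1 in every library. Rps27l, known as a p53 target, stood at 0.0555 to 0.176 of Rps27 (median 0.109), and Rpl7l1 at 0.0266 to 0.0715 of Rpl7 (median 0.0453). In WENR-minus medium Rps27l was called lower in proximal (-1.13 ± 0.24, adjusted p = 0.013) and distal (-0.87 ± 0.25, adjusted p = 0.0122) Cdx2-sgRNA organoids. Only 20.1% of Rps27l reads lay on transcripts annotated as protein coding. Counted on these alone, Rps27l in proximal Cdx2-sgRNA organoids gave -1.13 ± 0.79 (adjusted p = 0.373 by edgeR) and in distal Cdx2-sgRNA organoids 0.0582 ± 0.79 (adjusted p = 0.965), so that neither call held and the sign of the distal value turned, and its median ratio to Rps27 was 0.0261. On the same transcripts the median ratio of Rpl36al to Rpl36a was 6.16, and its maximum was infinite, as Rpl36a had no TPM on them in at least 1 library. Rpl36al (-1.23 ± 0.37, adjusted p = 0.0187) and Rpl7l1 (-0.84 ± 0.30, adjusted p = 0.0378) were called lower in distal Cdx2-sgRNA organoids alone; differences between the cultures were tested only where named above. Rps19bp1, at 21.0 to 130 reads a library, was called lower in distal Scramble-sgRNA (-1.09 ± 0.36, adjusted p = 0.0304) and distal Cdx2-sgRNA organoids (-1.15 ± 0.37, adjusted p = 0.0234). Both calls of Rps19bp1 ended with no filter on low counts (-1.05 and -1.10) and with protein-coding transcripts only (-1.08 and -0.76).

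**Figure D5:**
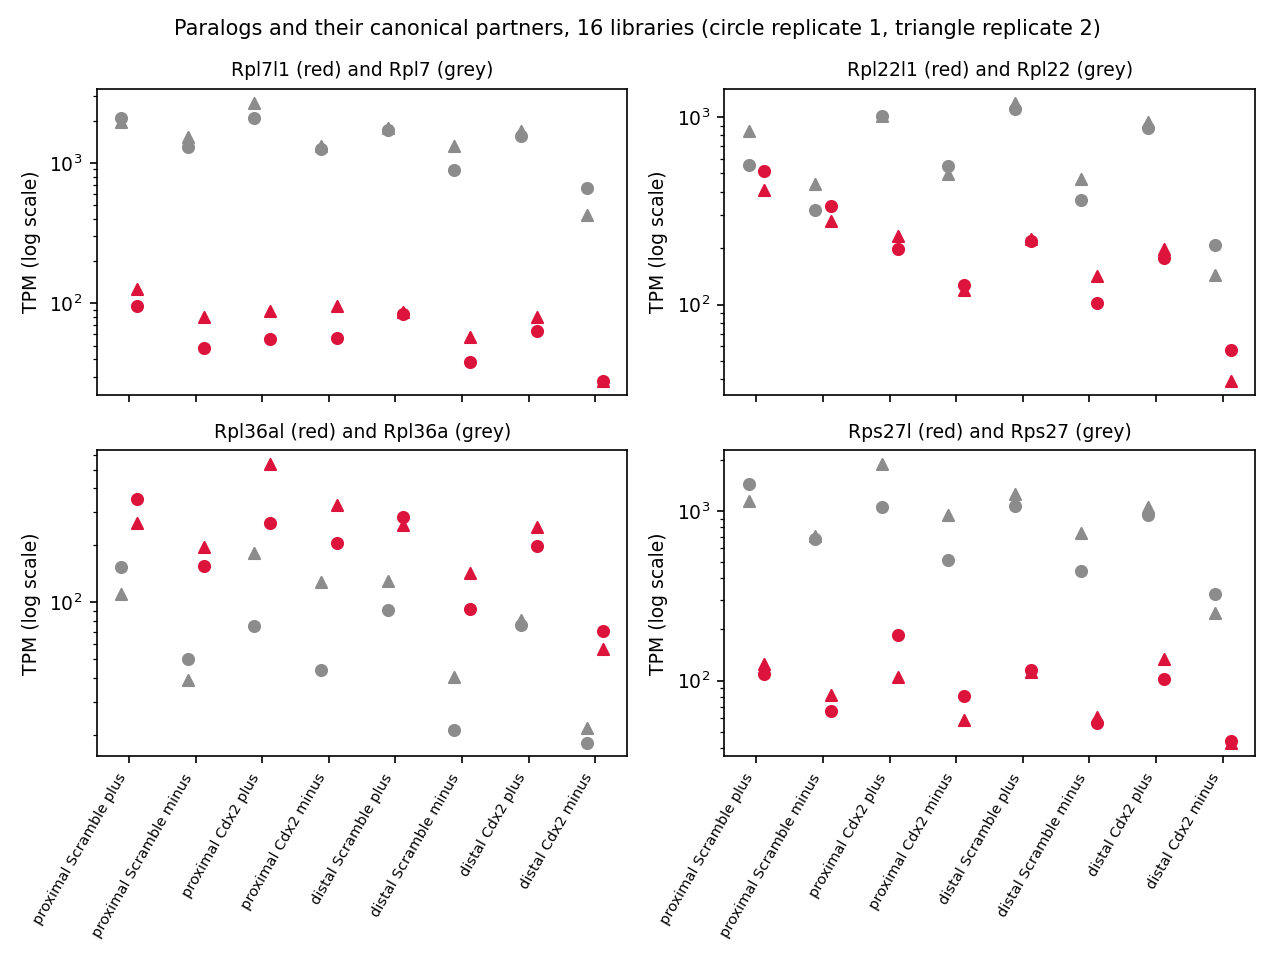
TPM (vertical axis, log scale) of 4 paralogs (red) and their canonical partners (grey) in the 16 libraries, by group, with circles for replicate 1 and triangles for replicate 2. Rpl22l1 approaches Rpl22 in the proximal Scramble-sgRNA groups and exceeds it in 1 of these libraries, and Rpl36al lies above Rpl36a, whose points leave out the reads of its pseudogenes. With these added to Rpl36a the ratio is 0.232 to 0.466.

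The subunits were also read apart. In distal Cdx2-sgRNA organoids the median log2 fold change in WENR-minus was -1.49 for the large and -1.62 for the small subunit, and in distal WENR-minus organoids the median change with Cdx2-sgRNA was -1.02 and -1.08. Reads of small subunit genes stood at 0.54 to 0.59 of those of large subunit genes in WENR-plus (mean 0.567 ± 0.0205, SD, n = 8) and at 0.44 to 0.55 in WENR-minus libraries (0.492 ± 0.0382, n = 8). The ratio was lower in WENR-minus in 8 of 8 pairs of libraries of the same culture and replicate number, and the ranges of the media overlapped. Members that hold snoRNA genes had a median of -1.61 in the medium comparison of distal Cdx2-sgRNA organoids and those without -1.49. The 77 canonical members lie on 19 chromosomes, most often on chromosome 7 (14 members).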

How the data were processed

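RNA of 16 organoid libraries was sequenced. Per the labels and the study's methods, the authors prepared stranded total RNA libraries and quantified them with Salmon 1.1.0 against GENCODE transcripts (mm10), and they deposited for each library the estimated count (not scaled between libraries) and the TPM (scaled to effective length) of every transcript. Here, transcripts were matched by Ensembl ID to genes of GENCODE vM21 (139864 of 140748 transcripts, the other 884 holding 0.257 to 0.509% of counts). Estimated counts were summed per gene and rounded. edgeR 4.0.16 in R 4.3.3 (filterByExpr, TMM factors, quasi-likelihood test, 1 coefficient a group, 8 residual degrees of freedom) tested 15289 genes, with Benjamini-Hochberg adjustment over all of them. CPM uses the TMM-scaled library size. TPM was summed per gene and was used only for levels and paralog ratios. Scripts were tested on simulated data.

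Per the study the replicates of a group came from different mice. Whether a number marks the same mouse in every culture is not given in the sources used here, so the numbers were not taken to pair the samples across cultures. The main fit did not pair the media within a culture either, although the deviations of their libraries numbered alike correlated by 0.28 to 0.59. The medium tests are therefore unpaired. The block named next is a term shared by all cultures and does not pair the media within a culture. The replicate number as a block was an alternative, as were DESeq2 1.42.0, other filters, scalings and transcript sets, and each library left out. The family and the gene lists were chosen with earlier results of these data known. Named members are Cdx2, the paralogs, the extremes of level, of variability and of fold change among called members (3 each), and other genes of translation and growth. A few genes that this rule names are not reported here.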

Additional observations from a re-analysis of the deposited data

Results flagged for a closer look

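The effect of Cdx2-sgRNA differed between proximal and distal organoids in WENR-minus medium for some ribosomal protein genes. The difference itself was tested by edgeR, and 10 of 82 members were called (1 to 25 with 1 library left out), all with a higher value in proximal organoids, where 6.2% of all genes were called higher. Rpl27a had a difference of 1.9951 on the log2 scale, Rps12 of 1.96493 and Rpl31 of 1.47629, the last uncertain because named pseudogenes hold more reads than the gene. The cause was not tested, and since each Cdx2-sgRNA culture was 1 clone, clone and guide cannot be told apart.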

How the results depend on the processing

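The median of canonical members kept its sign under every planned setting in the 4 comparisons of the media, both of Cdx2-sgRNA in distal organoids and 3 of the 4 between regions. It crossed 0 for Cdx2-sgRNA in proximal WENR-minus (-0.47 to 0.12) and WENR-plus (-0.11 to 0.49) and between regions in Scramble-sgRNA WENR-minus (-0.01 to 0.51). Tests of named members kept their direction except that of Rps27l for the medium in distal Cdx2-sgRNA organoids (0.0582 with protein-coding transcripts only). They stayed past the threshold in 641 cases and lost it in 73 others, and with a library left out in 126 and 146. Counts of called members, compared with the 18, 49, 42 and 78 (media), 6, 1, 45 and 0 (Cdx2-sgRNA in proximal WENR-minus, proximal WENR-plus, distal WENR-minus and distal WENR-plus), 1, 1, 71 and 20 (regions, Scramble-sgRNA WENR-minus and WENR-plus, Cdx2-sgRNA WENR-minus and WENR-plus) and 10 (difference of the Cdx2-sgRNA effect between regions, WENR-minus) given above, moved as follows, and the causes were not tested. With a change over 2-fold required as well, they were 4 and 12 (media, proximal and distal Scramble-sgRNA), 1 and 0 (Cdx2-sgRNA, proximal WENR-minus and WENR-plus) and 2 (regions, Cdx2-sgRNA WENR-plus). With no filter on low counts they were 46 and 66 (media, Scramble-sgRNA), 13 (5 of them higher), 10 (9 higher) and 78 (Cdx2-sgRNA, proximal WENR-minus, proximal WENR-plus, distal WENR-minus), 4, 2 and 46 (regions, Scramble-sgRNA WENR-minus and WENR-plus, Cdx2-sgRNA WENR-plus), 44 and 9 (Cdx2-sgRNA effect between regions, WENR-minus and WENR-plus) and 5 and 3 (medium effect between guides, proximal and distal). With at least 10 counts in every library they were 33, 3, 32 and 1 (medium proximal Scramble-sgRNA, Cdx2-sgRNA proximal WENR-plus, region Cdx2-sgRNA WENR-plus, medium effect between guides proximal). Length-scaled counts gave 10 for the medium in proximal Scramble-sgRNA organoids and 2 for Cdx2-sgRNA in proximal WENR-plus. Fitting only the libraries compared gave 48 and 0 (media, proximal Scramble-sgRNA and Cdx2-sgRNA), 2 and 28 (Cdx2-sgRNA, proximal and distal WENR-minus) and 1 (regions, Cdx2-sgRNA WENR-plus). With protein-coding transcripts only they were 3 and 2 (Cdx2-sgRNA, proximal WENR-minus and WENR-plus), 0 in each medium (regions, Scramble-sgRNA) and 33 (regions, Cdx2-sgRNA WENR-plus). RLE factors and leaving out mitochondrial and ribosomal RNA genes gave 3 each for Cdx2-sgRNA in proximal WENR-plus, and the latter 1 for the medium effect between guides in proximal organoids. DESeq2 gave 3 (Cdx2-sgRNA, proximal WENR-plus), 2 and 31 (regions in WENR-plus, Scramble-sgRNA and Cdx2-sgRNA), 28 and 2 (Cdx2-sgRNA effect between regions, WENR-minus and WENR-plus) and 4 and 3 (medium effect between guides, proximal and distal). Library sizes without TMM factors, added after the factors had been seen, gave 49 and 76 (media, Scramble-sgRNA), 2 (Cdx2-sgRNA, proximal WENR-minus), 7 (regions, Scramble-sgRNA WENR-minus) and 31 (Cdx2-sgRNA effect between regions, WENR-minus). With all counts of the library as denominator, the WENR-plus over WENR-minus ratio of shares in proximal Cdx2-sgRNA organoids, averaged over the 2 replicates, was 2.10, against 2.27 with reads of nuclear protein-coding genes.

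Deviations of the libraries numbered 1 from their group means correlated over genes by 0.28 to 0.59 between the media of a culture and by -0.06 to 0.19 between cultures. The block is a term shared by all cultures, so it does not test pairing of the media within a culture. With the replicate number as a block the counts were 29 (medium, proximal Scramble-sgRNA), 2 (Cdx2-sgRNA, proximal WENR-plus), 2 (regions, Scramble-sgRNA WENR-minus, 1 of them canonical), 1 (Cdx2-sgRNA effect between regions, WENR-plus) and 1 (medium effect between guides, proximal), and the other counts stayed within 1.5 times.

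Leaving out 1 library at a time gave 1 to 4, 9 to 55, 7 to 47 and 59 to 70 called members for the media, 2 to 6, 0 to 2, 3 to 44 and 0 to 0 for Cdx2-sgRNA, and 0 to 1, 0 to 0, 34 to 76 and 0 to 30 for the regions, in the order above. It gave 1 to 25 and 0 to 1 for the Cdx2-sgRNA effect between regions in WENR-minus and WENR-plus, 0 to 1 and 0 to 0 for the medium effect between guides in proximal and distal organoids, and 0 to 0 for the medium effect between regions. The median TPM ratio of Rps27l to Rps27 was 0.0261 with protein-coding transcripts only, and that of Rpl36al to Rpl36a 6.16, both added later. A library left alone in its group is assumed to vary like the others.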
